A study of Homo sapiens with 87 samples.

Results

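The 10 genes described here encode accessory subunits of the BAF (SWI/SNF) chromatin-remodelling complex, namely DPF1, DPF2, DPF3, BCL7A, BCL7B, BCL7C, SS18, SS18L1, ACTL6A and ACTL6B. They were taken by name, as families of paralogs, and not by their measured values. All 10 members were found among the 35438 genes that each of both deposited gene tables lists, and 9 of them passed the filter on low counts in each table. ACTL6B did not.

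BAF moves and evicts nucleosomes with the ATPase SMARCA4 or SMARCA2, around which core and accessory subunits assemble. Several accessory positions can be filled by a choice of paralogs, and the choice changes during development: when neural progenitors leave the cell cycle, ACTL6A gives way to ACTL6B, SS18 to SS18L1, and DPF2 and PHF10 to DPF1 and DPF3. The DPF proteins read histone modifications through PHD fingers, the BCL7 proteins are small subunits of the ATPase module, the SS18 proteins are stable partners of the ATPase, and the ACTL6 proteins are actin-related.

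The mRNA was measured by poly-A RNA sequencing in HAP1, a human cell line with an almost haploid genome that goes back to a chronic myeloid leukaemia. The first table, on knockouts, gives 25 groups of 3 libraries, or 75 in all. Its 24 clones lack ACTB, ARID1A (clones 618-10 and 618-3), ARID1B, ARID2, BCL11A, BCL11B, BCL7A, BCL7B, BRD7, BRD9, DPF1, DPF2, DPF3, PBRM1, PHF10, SMARCA2, SMARCA4 (clones 2878-4 and 2878-6), SMARCC1, SMARCC2, SMARCD1, SMARCD2 or SMARCD3, and the group they are set against is wild-type clone C631. A second, double-loss table has 12 libraries, 2 for each of 6 groups: ARID2 knockout with SMARCA4 knockdown, SMARCA4 knockout with ARID2 knockdown, wild type with both knockdowns, ARID2 knockout and SMARCA4 knockout each with a control knockdown, and wild type with the control knockdown. The labels write the knockdown reagents as both sh and si, and give no clone number for the double-loss libraries or for SMARCC2. Every other gene but ARID1A and SMARCA4 had 1 clone, so that loss of the gene and other features of its clone cannot be told apart. All clones share the same 3 wild-type libraries. Whether a group's libraries stem from separate cultures is not said in the labels, so the p-values speak of the spread between libraries, which may be technical. Protein was not analysed here, and in bulk RNA fewer cells of a type and less RNA per cell cannot be told apart.

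Library totals were 14917644 to 29993652 counts in the knockout table and 9144150 to 19789622 in the double-loss table. The lowest deposited value is 1, so a gene without reads is also listed at 1. Levels are given in CPM, counts scaled to 1000000 per library. The fusion partners of the line's leukaemia, BCR and ABL1, summed to 40.6 to 72.5 CPM over the group means of the knockout table. A sum per gene does not show the fusion and so does not check the cell line. Lists of 11 neuronal genes and of 4 genes of the HEK293 line summed higher, to 79.2 to 187 and 76.3 to 264 CPM. A list of 8 blood-cell markers, of which 3 were at the minimum in all libraries, summed to 0.660 to 3.78 CPM. In the double-loss table SMARCA4 mRNA stood at 19.5 ± 12.5 CPM in ARID2 knockout with SMARCA4 knockdown and at 307 CPM in wild type under control knockdown. ARID2 mRNA did not pass the test in any contrast of that table, with 25.8 ± 2.96 CPM in SMARCA4 knockout with ARID2 knockdown and 38.0 CPM in wild type under control knockdown (SD, n = 2). In wild type with both knockdowns SMARCA4 mRNA did not pass either, against wild type under control knockdown. Loss of both genes in that group thus rests on the labels. So do the ARID2 knockout in this table and the ARID2 knockdown in the SMARCA4 knockout.

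BCL7A and SS18L1 were lower in both SMARCA4 clones and SS18 was higher there, while ACTL6B was at or near the lowest listed value in the knockout table. The 250 bases before the start of these 4 genes (RefSeq, GRCh38.p14, printed 5′ to 3′ on the gene's strand) are shown with CG dinucleotides, the sites of vertebrate DNA methylation, in capitals.
BCL7A (chr12:122021634-122021883, plus strand): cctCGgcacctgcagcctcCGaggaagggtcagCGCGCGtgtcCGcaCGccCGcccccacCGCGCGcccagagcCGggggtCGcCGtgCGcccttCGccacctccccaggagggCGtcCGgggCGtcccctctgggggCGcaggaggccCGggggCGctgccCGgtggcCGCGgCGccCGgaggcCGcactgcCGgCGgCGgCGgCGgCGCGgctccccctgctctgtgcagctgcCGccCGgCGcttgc
SS18L1 (chr20:62143519-62143768, plus strand): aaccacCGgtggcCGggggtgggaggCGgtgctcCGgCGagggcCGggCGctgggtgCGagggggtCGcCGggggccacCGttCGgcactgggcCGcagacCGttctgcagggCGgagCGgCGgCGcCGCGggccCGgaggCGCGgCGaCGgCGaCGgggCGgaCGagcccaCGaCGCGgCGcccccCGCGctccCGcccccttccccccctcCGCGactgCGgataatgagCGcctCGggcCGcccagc
SS18 (chr18:26090614-26090863, minus strand): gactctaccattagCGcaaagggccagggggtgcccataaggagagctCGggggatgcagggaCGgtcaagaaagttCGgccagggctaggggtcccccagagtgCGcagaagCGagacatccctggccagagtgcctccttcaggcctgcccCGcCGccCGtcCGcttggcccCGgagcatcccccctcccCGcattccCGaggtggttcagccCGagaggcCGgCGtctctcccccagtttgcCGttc
ACTL6B (chr7:100656449-100656698, minus strand): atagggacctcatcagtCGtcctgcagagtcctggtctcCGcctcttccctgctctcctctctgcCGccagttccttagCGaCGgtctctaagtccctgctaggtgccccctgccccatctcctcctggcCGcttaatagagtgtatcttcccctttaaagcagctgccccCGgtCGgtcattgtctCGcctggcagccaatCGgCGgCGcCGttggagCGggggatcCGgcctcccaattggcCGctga
Of the 10 members, 9 matched a promoter in the RefSeq table, and ACTL6A had no entry. SS18L1 held 42 CG dinucleotides and BCL7A 38, SS18 17 and ACTL6B 16, beside a median of 11 over 35116 promoters. SS18L1 held more than 98.6% of promoters did, and BCL7A more than 96.7%. Of the other members, BCL7C held 38, the same as BCL7A, BCL7B 31, DPF2 30, DPF1 28 and DPF3 19. A high number was therefore not particular to SS18L1 and BCL7A. The motif GGGCGG, searched on both strands, was found in SS18L1, BCL7A and SS18 and not in ACTL6B, and 42.6% of all promoters hold it. These letters describe a window and say nothing about binding.

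Levels were first compared between genes per kilobase of the principal transcript. In wild type ACTL6A, the actin-related subunit that BAF shares with the INO80 and TIP60 complexes, was the most abundant member, at 72.5 ± 7.34 CPM per kb (SD, n = 3). SS18, known as the fusion partner of SSX genes in synovial sarcoma, followed at 29.5 ± 1.82 CPM per kb and DPF2, the widely expressed DPF protein, at 28.2 ± 1.42 CPM per kb, and their libraries overlapped. BCL7A stood at 21.5 ± 1.40 CPM per kb and BCL7C at 19.3 ± 1.12 CPM per kb, with libraries of 20.01 to 22.8 and 18.1 to 20.4. This neighbouring pair also overlapped, and the pair changed places when the longest transcript was used as the length (8.89 ± 0.579 against 13.9 ± 0.806 CPM per kb).

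DPF1, a DPF protein of neurons, reached 12.4 ± 1.12 CPM per kb in wild type. BCL7B, one of the small ATPase-module subunits, had 7.04 ± 0.565 CPM per kb and SS18L1, a calcium-responsive activator in neurons, 6.60 ± 0.547 CPM per kb, and their libraries overlapped. DPF3, known for its part in heart and muscle development, had 3.58 ± 0.654 CPM per kb, a value that rests on 70, 76 and 108 counts and on a short principal transcript of 1138 bases. With the longest transcript DPF3 had 0.901 ± 0.165 CPM per kb and stayed in the same place of the order. ACTL6B closed the order at 0.0317 ± 0.00412 CPM per kb.

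In the SS18, DPF and ACTL6 families one paralog supplied most of the transcripts per kilobase. SS18 made up 81.7% ± 0.964 of the SS18 pair in wild type (SD, n = 3), and the mean of its share ran between 76.5% in the SMARCC2 clone and 88.0% in SMARCA4 clone 2878-6 over the 25 groups. DPF2 made up 63.9% ± 2.51 of the DPF family in wild type, DPF1 28.0% ± 1.30 and DPF3 8.09% ± 1.30. BCL7A and BCL7C shared most of the BCL7 family, with 44.95% ± 1.13 and 40.3% ± 0.658 in wild type, and BCL7B held 14.8% ± 1.78. These shares depend on the length used: with the longest transcripts the wild-type means were 29.8% for BCL7A, 46.6% for BCL7C and 23.6% for BCL7B, and 63.3% for DPF2, 33.2% for DPF1 and 3.49% for DPF3. The ACTL6A share of its pair was at least 99.9% in each group.

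**Figure D1:**
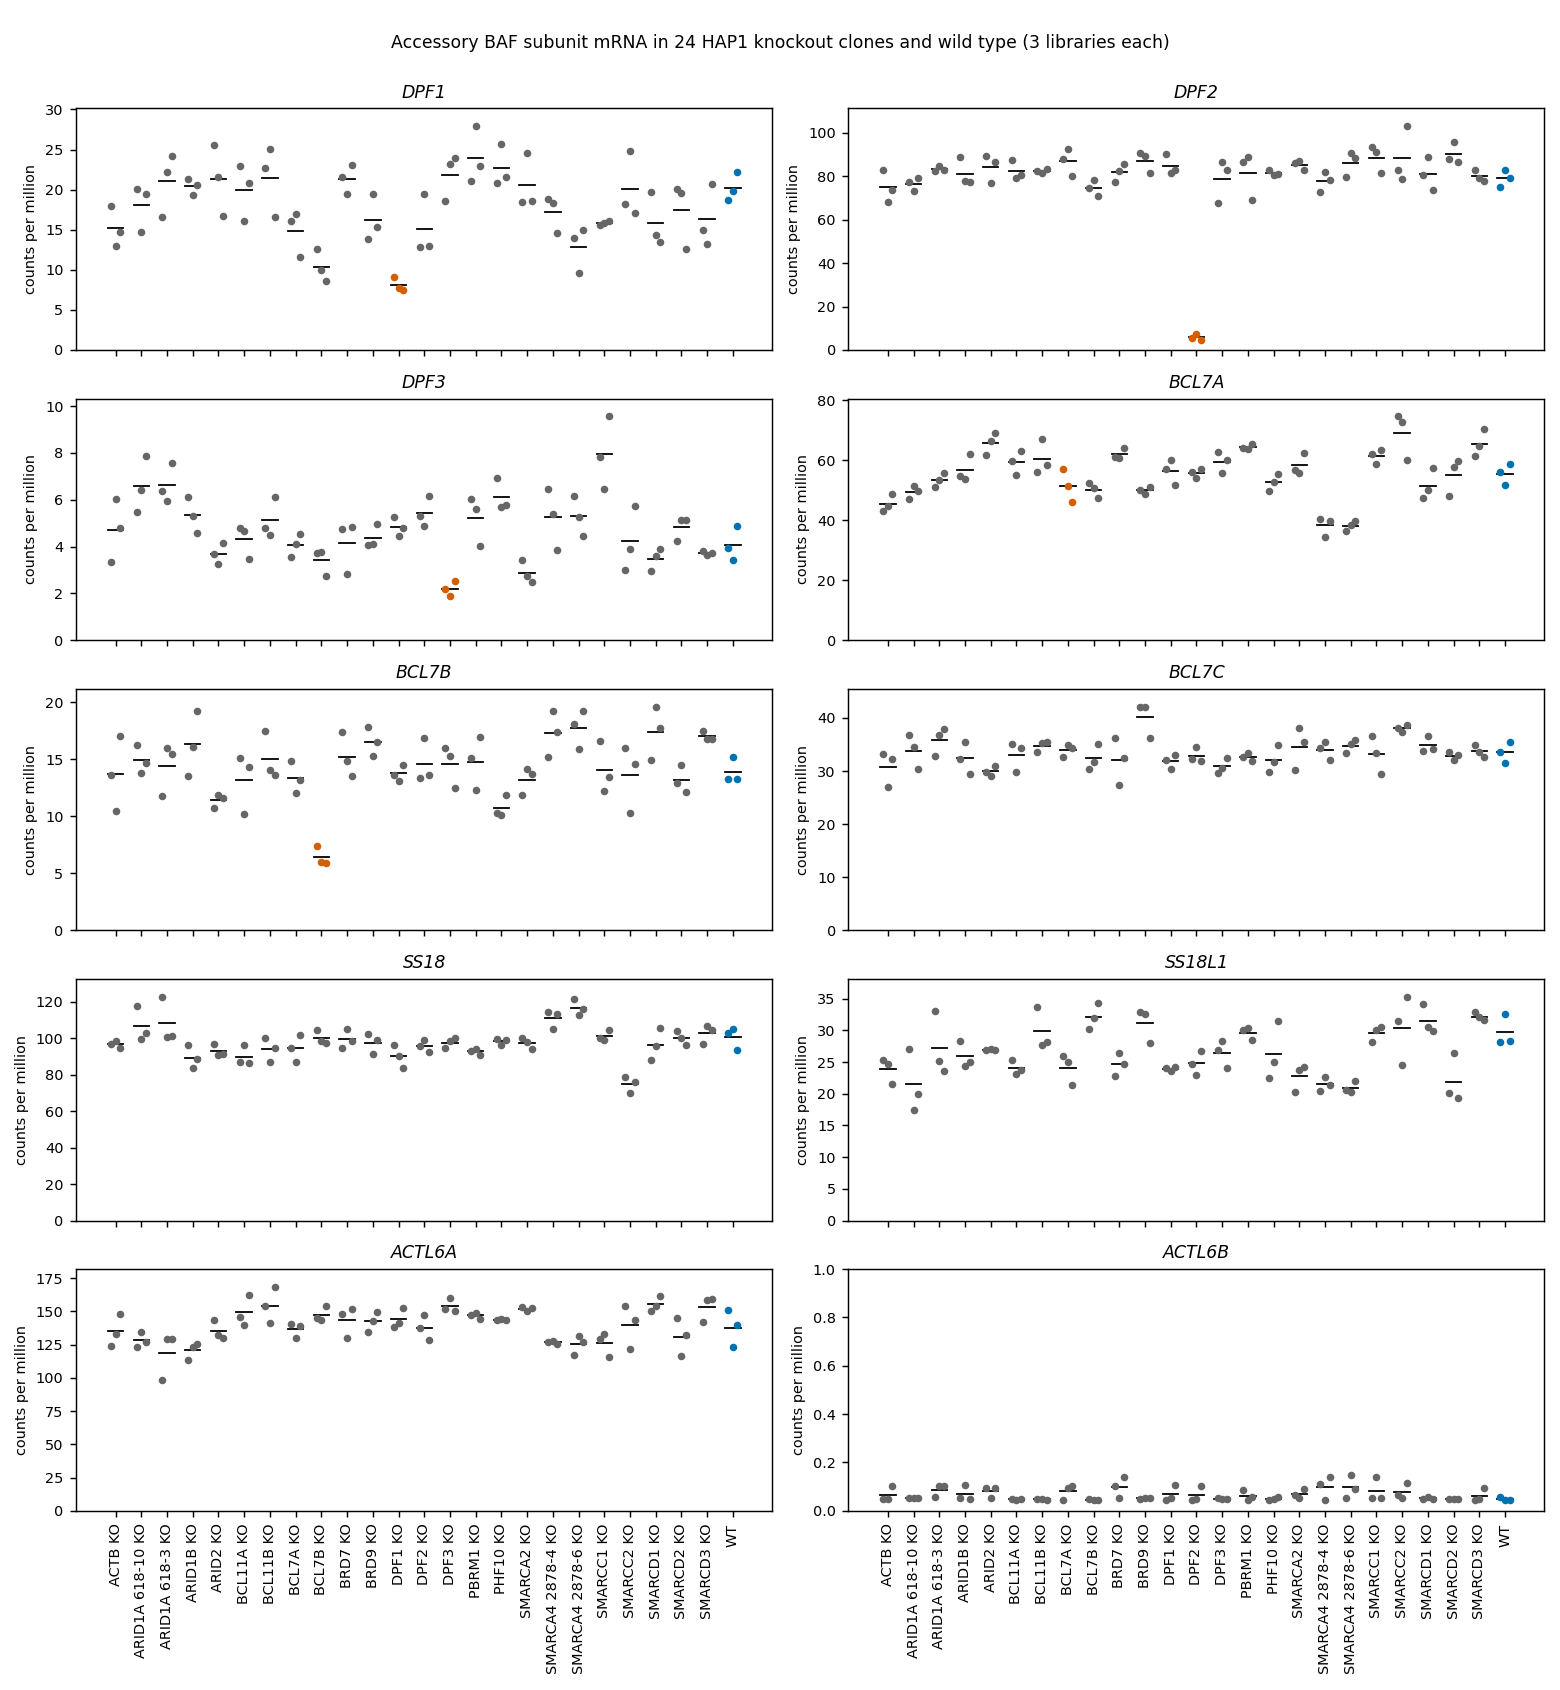
CPM (vertical axes, each starting at 0) of the 10 members in the 24 knockout clones and, at the right, wild type (horizontal axis). Points are libraries, lines are means of 3 libraries, orange marks the clone in which the plotted gene was knocked out and blue the wild type. DPF2 fell to 6.00 CPM in its own clone against 79.0 CPM in wild type, BCL7A stood at 51.6 CPM in its own clone against 55.6 CPM, and ACTL6B stayed at or under 0.149 CPM.

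The targeted mRNA was examined in the 5 clones that lack a member. It passed the test and was lower in 4 of them, and in 3 by at least 1 on the log2 scale. The test was edgeR's quasi-likelihood test with Benjamini-Hochberg adjustment over 16159 genes, at an adjusted p of 0.05. DPF2 had 5.67, 7.58 and 4.76 CPM in the DPF2 clone, against 74.97, 82.9 and 79.2 CPM in wild type. Its fold change was -3.73 on the log2 scale (SE 0.107, adjusted p = 1.65e-35, edgeR).

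DPF1 had 9.14, 7.75 and 7.52 CPM in the DPF1 clone, against 18.7, 19.8 and 22.2 CPM in wild type. That is a log2 fold change of -1.32 (SE 0.208, edgeR adjusted p = 6.94e-06). BCL7B had 7.42, 6.00 and 5.94 CPM in the BCL7B clone, against 13.3, 15.2 and 13.2 CPM in wild type. Its log2 fold change was -1.12 (SE 0.166, edgeR adjusted p = 3.39e-07). In these 3 clones no library reached the wild-type range. At the same threshold 6.72% of all genes passed in the DPF2 clone, 2.79% in the DPF1 clone and 19.5% in the BCL7B clone.

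DPF3 had 2.19, 1.87 and 2.53 CPM in the DPF3 clone, against 3.92, 3.42 and 4.88 CPM in wild type, again without overlap. The log2 fold change was -0.88 (SE 0.224, edgeR adjusted p = 0.0137), in a clone where 2.21% of all genes passed. It no longer passed without wild-type replicate 3 (adjusted p = 0.179), without replicate 1 (0.0912) or 2 (0.347) of every clone, or with only both groups in the fit (0.172). BCL7A had 57.1, 51.4 and 46.1 CPM in the BCL7A clone, against 56.2, 51.7 and 58.8 CPM in wild type. These groups overlapped, and the log2 fold change of -0.12 (SE 0.0871, 95% interval -0.29 to 0.05, edgeR adjusted p = 0.486) did not pass, where 9.12% of all genes did. Its mRNA level therefore does not check the label of that clone, and no clone lacking BCL7C, SS18, SS18L1, ACTL6A or ACTL6B was analysed here.

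The paralogs of a missing member were then examined for a change. With edgeR none of 10 such tests passed, 1 of them reached an unadjusted p of 0.05, and the log2 fold changes lay between -0.43 and 0.40. In the DPF2 clone, which lost the most abundant DPF transcript, DPF1 had 12.9, 19.5 and 12.95 CPM, against 18.7, 19.8 and 22.2 CPM in wild type. Its log2 fold change was -0.43 (95% interval -0.83 to -0.04, edgeR adjusted p = 0.255).

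DPF3 had 5.31, 4.87 and 6.14 CPM in the DPF2 clone, against 3.92, 3.42 and 4.88 CPM in wild type. The lowest clone library lay just under the highest wild-type library, and the log2 fold change was 0.40 (95% interval -0.01 to 0.81, edgeR adjusted p = 0.354). The family summed to 16.2 ± 2.40 CPM per kb in the DPF2 clone and 44.2 ± 2.32 CPM per kb in wild type (SD, n = 3). The DPF2 share of it was 13.2% ± 1.61 in the DPF2 clone against 63.9% ± 2.51 in wild type.

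In the DPF1 clone DPF2 differed by 0.10 (95% interval -0.08 to 0.28) and DPF3 by 0.24 (-0.17 to 0.65) on the log2 scale. The DPF3 clone gave differences of 0.12 (-0.27 to 0.51) for DPF1 and 0.01 (-0.17 to 0.18) for DPF2. Among BCL7 genes, BCL7A had 52.4, 50.8 and 47.5 CPM in the BCL7B clone, against 56.2, 51.7 and 58.8 CPM in wild type, a log2 fold change of -0.15 (-0.32 to 0.02, edgeR adjusted p = 0.242). BCL7C in that clone differed by -0.05 (-0.23 to 0.12), and in the BCL7A clone BCL7B differed by -0.07 (-0.38 to 0.24) and BCL7C by 0.00 (-0.17 to 0.18). The intervals leave room for rises of up to 0.81 for the weakly expressed DPF3 and 0.28 for DPF2. No run of 50 bases, the read length, was shared between transcripts of any members. BCL7A, BCL7C and ACTL6A overlap exons of genes on the other strand in the annotation (AC069503.1, MIR762HG and MRPL47), BCL7C also AC135048.2 on its own strand, and whether counting used strand is not given in the sources used here.

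**Figure D2:**
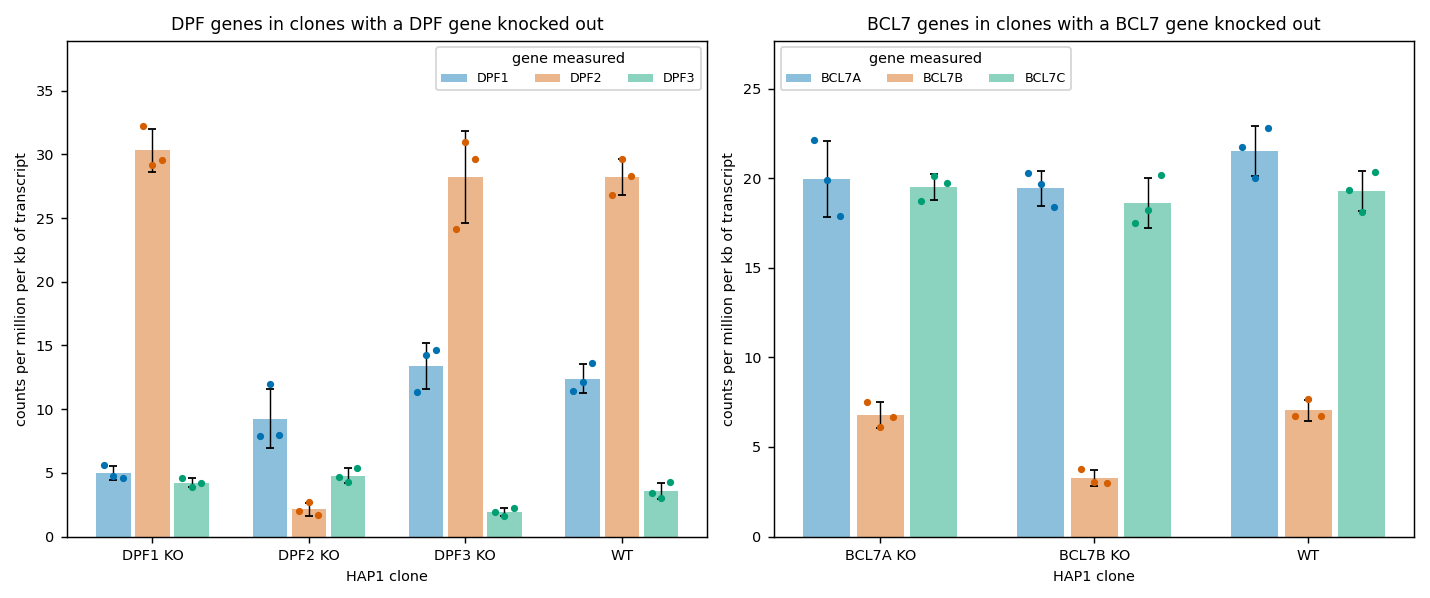
CPM per kb of principal transcript (vertical axes) of the DPF genes in the DPF clones and wild type (left) and of the BCL7 genes in the BCL7 clones and wild type (right). Bars are means, error bars SD and points the 3 libraries. DPF2 is low in its own clone alone, at a 13.2% share of the DPF family, and no neighbouring bar of another family member passed the test.

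Outside their own knockouts the members gave 211 tests over the 24 clones, and 17 passed, 7 higher and 10 lower. None reached a log2 fold change of 1, and 42 had an unadjusted p of at most 0.05. Over all genes 14.1% of tests passed, 7.28% higher and 6.78% lower, and 4.70% also reached the fold of 1. For the members the share that passed was 8.06%, and their median absolute log2 fold change was 0.10, beside 0.18 over all genes. In 14 clones no member other than the one knocked out passed. Against the mean of the other clones in place of wild type, 35 tests passed higher and 16 lower. That mean includes the clones of DPF1, DPF2, DPF3 and BCL7B, where these genes were lower themselves. It is thereby lowered for them, and part of the shift towards higher is built in. How far the split otherwise depends on the reference was not tested.

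Apart from the knockouts of DPF2 and BCL7B themselves, DPF2, BCL7B, BCL7C and ACTL6A did not pass in any of the 24 clones. ACTL6A means lay between 119 CPM in ARID1A clone 618-3 and 155 CPM in the SMARCD1 clone, with 138 ± 13.9 CPM in wild type, and in no clone did its libraries separate from wild type. DPF2 means ranged over 74.9 CPM in the BCL7B clone to 90.1 CPM in the SMARCD2 clone, against 79.0 ± 3.97 CPM in wild type. BCL7C ran between 30.0 CPM in the ARID2 clone and 40.1 CPM in the BRD9 clone, against 33.6 ± 1.94 CPM in wild type. BCL7B ran between 10.8 CPM in the PHF10 clone and 17.7 CPM in SMARCA4 clone 2878-6, against 13.9 ± 1.12 CPM in wild type.

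**Figure D3:**
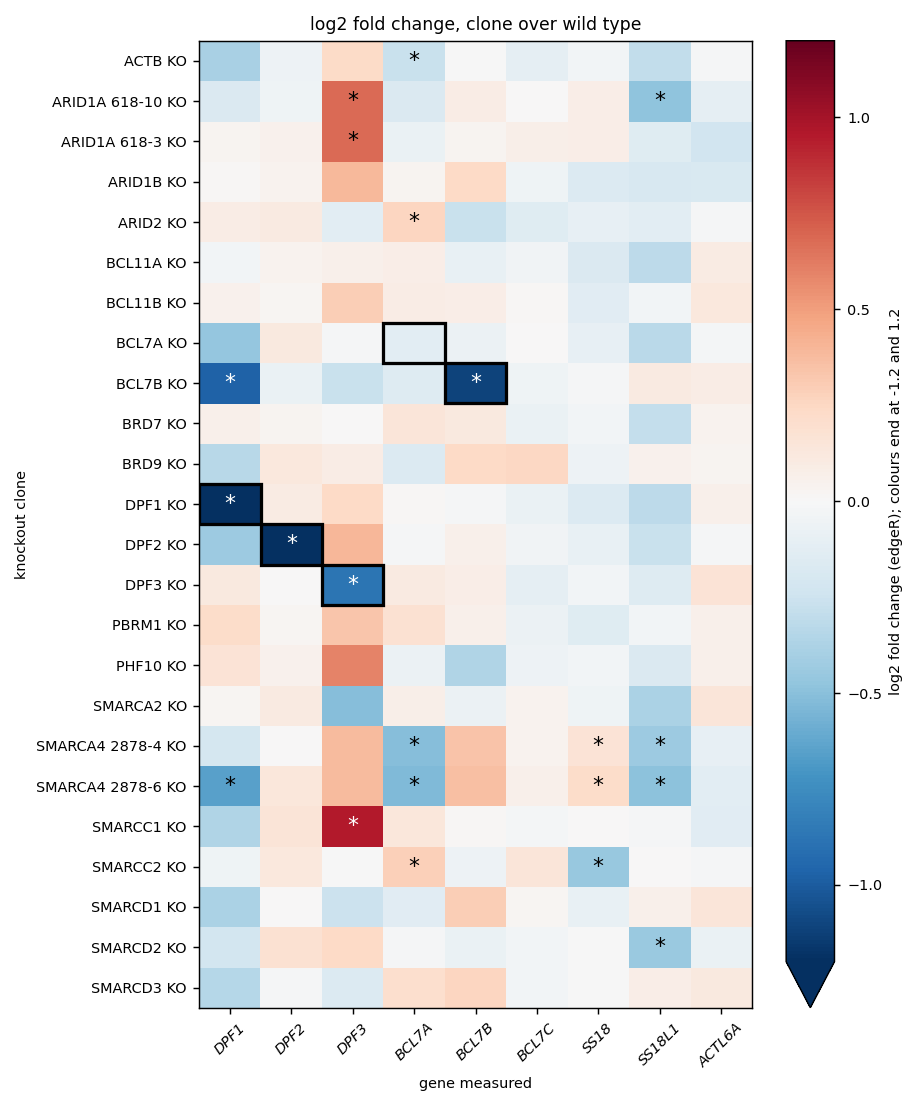
Log2 fold changes over wild type (colour; red higher, blue lower) of 9 members (columns) in the 24 knockout clones (rows), with stars where the adjusted p was at most 0.05 and frames around a clone's own gene. Among the unframed cells 7 red and 10 blue ones carry a star, 7 of these stars in the rows of the SMARCA4 clones.

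In the clones lacking SMARCA4, the main ATPase, more members passed than in any other clone, 3 of 9 in 2878-4 and 4 of 9 in 2878-6. Of all genes 34.9% and 32.8% passed there, so these counts were near the share over all genes and not particular to the members. BCL7A, SS18L1 and SS18 were the members that passed in both. SMARCA4 mRNA itself had 13.5 ± 3.49 and 14.7 ± 1.42 CPM in these clones and 253 CPM in wild type (SD, n = 3). BCL7A had 40.5, 34.4 and 39.9 CPM in clone 2878-4 and 36.2, 38.5 and 39.8 CPM in clone 2878-6, against 56.2, 51.7 and 58.8 CPM in wild type. The groups did not overlap. The log2 fold changes were -0.51 (SE 0.0878, edgeR adjusted p = 2.67e-06) and -0.53 (SE 0.0878, adjusted p = 1.44e-06).

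SS18L1 moved the same way as BCL7A. It had 20.5, 22.6 and 21.4 CPM in clone 2878-4 and 20.7, 20.3 and 22.0 CPM in clone 2878-6, against 28.1, 32.5 and 28.4 CPM in wild type. The groups did not overlap, and the log2 fold changes were -0.44 (SE 0.119, edgeR adjusted p = 0.00231) and -0.49 (SE 0.119, adjusted p = 0.000763). Its paralog SS18 was higher, with 114, 105 and 113 CPM in clone 2878-4 and 121, 113 and 116 CPM in clone 2878-6, against 103, 105 and 93.6 CPM in wild type. Only clone 2878-6 lay wholly above wild type. The SS18 log2 fold changes were 0.17 (SE 0.0677, edgeR adjusted p = 0.0494) and 0.22 (SE 0.0677, adjusted p = 0.00722).

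DPF1 passed in 1 of the SMARCA4 clones. It had 13.9, 9.57 and 15.0 CPM in clone 2878-6, against 18.7, 19.8 and 22.2 CPM in wild type (log2 fold change -0.65, SE 0.202, edgeR adjusted p = 0.00928), and 18.8, 18.3 and 14.6 CPM in clone 2878-4. The clones were also set against each other: none of the 9 members passed, beside 3.43% of all genes, and the DPF1 difference of 0.44 (95% interval 0.04 to 0.84, adjusted p = 0.357) was the largest. BCL7B, not passing, had log2 fold changes of 0.34 (adjusted p = 0.0934) and 0.36 (0.0756). As shares of the BCL7 family per kilobase, BCL7A held 34.4% ± 3.30 and 33.8% ± 0.736 in the SMARCA4 clones and 44.95% ± 1.13 in wild type, and BCL7B 20.3% ± 2.32 and 20.5% ± 1.59 against 14.8% ± 1.78 (SD, n = 3). With the longest transcripts the mean BCL7A shares were 21.2% and 20.7% in the SMARCA4 clones and 29.8% in wild type, and those of BCL7B 30.2% and 30.4% against 23.6%. By that length BCL7B lay above BCL7A in both SMARCA4 clones and below it in wild type.

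BCL7A and SS18L1 kept passing in both clones in all 16 alternatives run. The SS18L1 log2 fold change ran from -0.48 to -0.26 in 2878-4 and from -0.52 to -0.31 in 2878-6. That of BCL7A ran from -0.56 to -0.44 and from -0.58 to -0.48. SS18 in 2878-6 did not pass without wild-type replicate 3 (adjusted p = 0.0647), and in 2878-4 it passed in 8 of 16 alternatives. The DPF1 call ended without wild-type replicate 3 (0.0508) or replicate 2 of every clone (0.109). The summed level of 7 fibroblast markers was highest over all groups in SMARCA4 clone 2878-4, at 146 CPM against 24.9 CPM in wild type, and its part in these results was not tested.

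The paralogous ATPase gave no member that passed. In the SMARCA2 clone, where 4.41% of all genes passed, BCL7A had a log2 fold change of 0.07 (95% interval -0.10 to 0.24) and SS18 one of -0.05 (-0.18 to 0.09). SS18L1 had 20.2, 23.8 and 24.3 CPM there, against 28.1, 32.5 and 28.4 CPM in wild type. All 3 clone libraries lay below wild type, and the adjusted p of 0.0513 (log2 fold change -0.38, SE 0.119, edgeR) was just over the threshold. The difference between SMARCA4 and SMARCA2 loss was not tested.

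**Figure D4:**
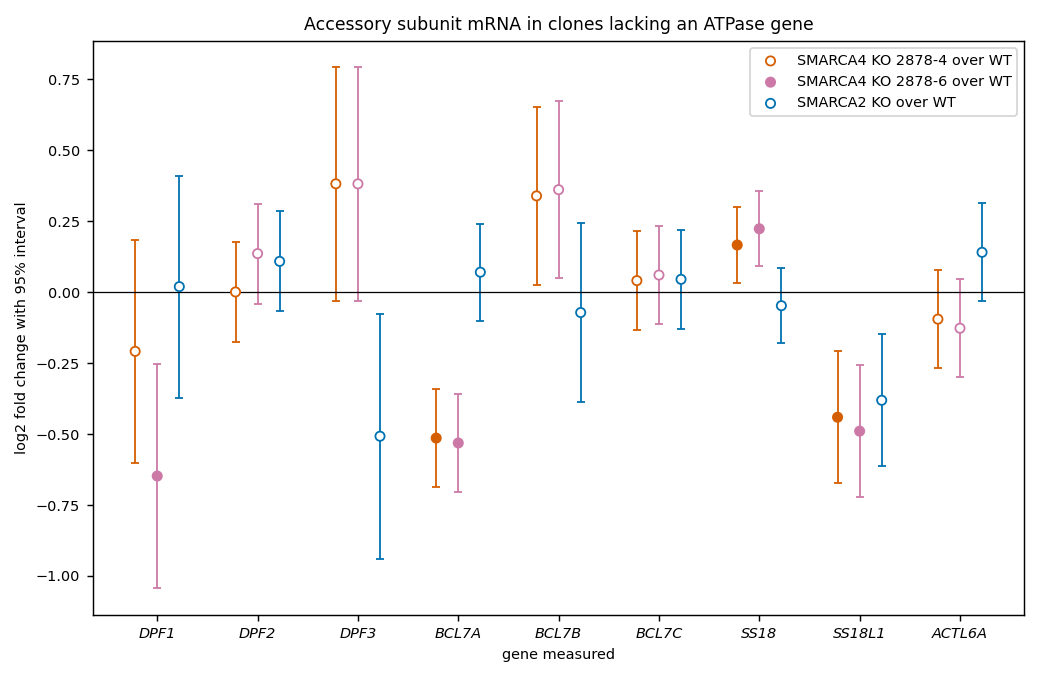
Log2 fold changes over wild type with 95% intervals (vertical axis) of 9 members (horizontal axis) in both SMARCA4 clones and the SMARCA2 clone. Filled points passed the test. BCL7A lies at -0.51 and -0.53 in the SMARCA4 clones and at 0.07 in the SMARCA2 clone, and SS18L1 at -0.44, -0.49 and -0.38.

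In the BCL7B clone DPF1 was the only member besides BCL7B itself that passed. It had 12.6, 9.95 and 8.55 CPM there, against 18.7, 19.8 and 22.2 CPM in wild type. No libraries overlapped, and the log2 fold change of -0.97 (SE 0.204, edgeR adjusted p = 0.000213) passed in all 16 alternatives. It was the largest decrease of a member outside its own knockout. With 1 BCL7B clone, the absence of BCL7B and other features of this clone cannot be told apart. The blood-cell marker sum was highest over all groups in this clone, at 3.78 CPM against 0.937 CPM in wild type, and its part in the DPF1 value was not tested.

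DPF3 was higher in 3 clones, those lacking the scaffold subunit SMARCC1 or the DNA-binding subunit ARID1A. The targeted mRNA stood at 42.8 ± 2.29 CPM in the SMARCC1 clone against 337 ± 14.3 CPM in wild type, and ARID1A mRNA at 117 ± 8.82 CPM in clone 618-10 and 93.1 ± 5.32 CPM in clone 618-3 against 217 ± 26.4 CPM (SD, n = 3). In the SMARCC1 clone, where 17.6% of all genes passed, DPF3 had 7.82, 6.47 and 9.56 CPM, against 3.92, 3.42 and 4.88 CPM in wild type. This was the largest rise of a member (log2 fold change 0.96, SE 0.207, edgeR adjusted p = 0.000339) and passed in all 16 alternatives. ARID1A clone 618-10 gave 5.47, 6.41 and 7.88 CPM and clone 618-3 gave 6.39, 5.94 and 7.59 CPM. Neither overlapped wild type, and the log2 fold changes were 0.68 in each (SE 0.209, edgeR adjusted p = 0.0139 and 0.0143).

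Between the ARID1A clones DPF3 differed by 0.00 (95% interval -0.40 to 0.40), and none of the 9 members passed, beside 2.30% of all genes. Both DPF3 calls ended without wild-type replicate 2 (adjusted p = 0.101 and 0.108) or replicate 3 of every clone (0.0660 and 0.0508). They also ended with only both groups in the fit (edgeR adjusted p = 0.076 and 0.0545). That in 618-10 ended without replicate 2 of every clone as well (0.0789). Of all genes 18.6% passed in clone 618-10 and 17.6% in 618-3. SS18L1 was lower in clone 618-10, with 27.1, 17.4 and 19.9 CPM against 28.1, 32.5 and 28.4 CPM in wild type (log2 fold change -0.48, SE 0.119, edgeR adjusted p = 0.00186). That call ended without replicate 2 of every clone (0.104) or with only both groups in the fit (0.0938). In clone 618-3, with 33.1, 25.2 and 23.6 CPM, SS18L1 did not pass.

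SS18 was lower in the clone lacking SMARCC2, the paralogous scaffold subunit, whose own mRNA had 44.4 ± 5.55 CPM there and 73.1 ± 4.50 CPM in wild type (SD, n = 3). SS18 had 78.9, 69.9 and 76.2 CPM there, against 103, 105 and 93.6 CPM in wild type, with no overlap. The log2 fold change was -0.46 (SE 0.0681, edgeR adjusted p = 3.11e-07), in a clone where 33.2% of all genes passed. The SMARCC2 samples are numbered among the double-loss samples of the series, apart from wild type and the other clones. Whether they were also prepared apart is not given in the labels. For any gene in this clone, such a difference and loss of SMARCC2 cannot be told apart. In this clone genes with more GC tended to have higher fold changes (Spearman rho 0.476 over 14508 genes, against -0.0906 to 0.211 in the other clones). With offsets for that trend the SS18 value was -0.31 (edgeR adjusted p = 1.39e-05). The SS18 transcript holds 42.5% GC and that of BCL7A 53.7%.

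BCL7A was higher in the SMARCC2 clone, with 74.6, 72.8 and 59.9 CPM against 56.2, 51.7 and 58.8 CPM in wild type. The lowest of these libraries came close to the wild-type range, and the log2 fold change of 0.28 (SE 0.0867, edgeR adjusted p = 0.00867) became 0.18 (adjusted p = 0.136) with offsets for GC content. Leaving out wild-type replicate 2 (0.0710), replicate 1 (0.0964) or replicate 2 (0.105) of every clone also ended the call. So did a fit with only both groups (0.0924).

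A further 3 calls were smaller. BCL7A had 61.6, 66.5 and 69.1 CPM in the ARID2 clone, against 56.2, 51.7 and 58.8 CPM in wild type (log2 fold change 0.26, SE 0.0868, edgeR adjusted p = 0.0351, where 14.9% of all genes passed). In the ACTB clone BCL7A had 43.1, 44.7 and 48.7 CPM, below each wild-type library (log2 fold change -0.27, SE 0.0874, adjusted p = 0.0253, where 15.1% of all genes passed). SS18L1 had 20.1, 26.4 and 19.3 CPM in the SMARCD2 clone, against 28.1, 32.5 and 28.4 CPM in wild type (log2 fold change -0.44, SE 0.119, adjusted p = 0.00971, where 7.12% of all genes passed). The ARID2 clone call ended without wild-type replicate 1 (adjusted p = 0.0642) or 2 (0.180), or without replicate 2 (0.185) or 3 (0.0676) of every clone. The ACTB clone call ended without wild-type replicate 1 (0.0650) or 3 (0.138), or without replicate 1 (0.160) or 2 (0.167) of every clone. That in the SMARCD2 clone ended without wild-type replicate 2 (0.101), or without replicate 1 (0.0751) or 3 (0.123) of every clone. With only both groups in the fit all 3 calls ended (0.0929 for ARID2, 0.0960 for ACTB and 0.1245 for SMARCD2). The ACTB clone call also ended without the filter on low counts (0.0811).

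Over all clones SS18L1 was the member with the most decreases, 4 of 24, beside 6.78% of all gene tests that passed lower. Its mean lay below the wild-type mean in 18 clones, as did that of SS18. Its wild-type libraries of 28.1, 32.5 and 28.4 CPM stand against a median clone mean of 26.1 CPM. BCL7A varied by 1.81 times between its lowest and highest clone means, DPF3 by 2.75 times and DPF1 by 2.31 times, whereas DPF2 varied by 1.204 times and ACTL6A by 1.31 times, each without the clone of the gene itself. The median SE of a log2 fold change was 0.211 for DPF3 and 0.200 for DPF1 but 0.0678 for SS18, so that changes of the scarce members had to be larger to pass.

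ACTL6B, the neuronal counterpart of ACTL6A, was listed at 1 count in 53 of 75 knockout libraries and at no more than 3 counts in the rest, which is at most 0.149 CPM. With 3 counts taken as the floor, these depths allow up to 0.201 CPM in the shallowest library, for counting error only, so that lower levels were not detectable. In ARID2 knockout with SMARCA4 knockdown both libraries held 6 counts (0.556 and 0.502 CPM), against 2 and 1 counts in wild type under control knockdown. The remaining double-loss libraries held 1 to 3 counts. ACTL6B did not enter the test in either table. REST, the repressor known to silence ACTL6B outside neurons, was present in all libraries, at 43.7 to 83.3 CPM in the knockout table and 28.1 to 71.2 CPM in the double-loss table.

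The double-loss table combined loss of SMARCA4 with that of ARID2, a subunit of the PBAF form of the complex. In ARID2 knockout with SMARCA4 knockdown 3 of 9 members passed against wild type under control knockdown, where 15.0% of all 14601 genes tested did: DPF2 and BCL7C were higher and SS18 was lower. DPF2 had 170 and 135 CPM in this group, against 79.3 and 105 CPM in wild type under control knockdown. The log2 fold change was 0.67 (SE 0.174, edgeR adjusted p = 0.0272).

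BCL7C had 63.2 and 53.5 CPM in ARID2 knockout with SMARCA4 knockdown, against 32.4 and 30.3 CPM in wild type under control knockdown (log2 fold change 0.84, SE 0.181, edgeR adjusted p = 0.0122). SS18 had 58.5 and 56.3 CPM, against 95.9 and 81.9 CPM (log2 fold change -0.69, SE 0.140, adjusted p = 0.00919). These 3 genes, named because they passed, did not overlap between these groups, and the share of all genes without overlap is not given. BCL7A had 49.0 and 55.7 CPM there, against 65.7 and 49.3 CPM, and SS18L1 had 30.8 and 33.1 CPM, against 32.0 and 36.9 CPM, and neither passed.

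Inside the ARID2 knockout the SMARCA4 knockdown gave the same 3 calls against the control knockdown, where 4.52% of all genes passed. DPF2 had 170 and 135 CPM against 78.9 and 98.1 CPM (log2 fold change 0.73, SE 0.175, edgeR adjusted p = 0.0424), BCL7C 63.2 and 53.5 CPM against 33.9 and 32.0 CPM (0.77, SE 0.182, adjusted p = 0.0407), and SS18 58.5 and 56.3 CPM against 88.3 and 75.1 CPM (-0.56, SE 0.141, adjusted p = 0.0464). Both contrasts share the libraries of ARID2 knockout with SMARCA4 knockdown and are not independent. With 1 replicate number left out of each group but wild type, the adjusted p was 0.333 for DPF2, 0.278 for BCL7C and 0.216 for SS18 against wild type without number 1, and 0.0627 for BCL7C and 0.108 for SS18 without number 2. Without replicate 1 of wild type under control knockdown the DPF2 call against it also ended, and without its replicate 2 that of BCL7C. Against the control knockdown in the ARID2 knockout, all 3 calls ended without number 1, and those of BCL7C and SS18 also without number 2. Over all alternatives the log2 fold changes in that contrast were 0.46 to 1.025 for DPF2, 0.73 to 0.82 for BCL7C and -0.68 to -0.43 for SS18. Without a wild-type replicate, its lone library was assumed to vary like the other groups. Without number 1 or 2 of the other groups, each of those held 1 library, and the spread came from the wild-type libraries alone. Calls that ended in those fits therefore do not show whether the differences hold.

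In the reciprocal double loss, SMARCA4 knockout with ARID2 knockdown, no member passed against wild type under control knockdown, where 11.8% of all genes did. DPF2 had 92.4 and 96.2 CPM, BCL7C 41.1 and 34.8 CPM and SS18 106 and 108 CPM there. Set directly against each other, a contrast chosen after the data were seen, the double losses differed in 2 of 9 members, beside 5.38% of all genes. SS18 was lower in ARID2 knockout with SMARCA4 knockdown, at 58.5 and 56.3 CPM against 106 and 108 CPM in SMARCA4 knockout with ARID2 knockdown (log2 difference -0.91, SE 0.140, edgeR adjusted p = 0.00311). DPF2 was higher, at 170 and 135 CPM against 92.4 and 96.2 CPM (0.68, SE 0.174, adjusted p = 0.0472), and BCL7C had a difference of 0.60 (SE 0.180, adjusted p = 0.0831). Knockout clone, knockdown and the gene hit by each change together between these groups and cannot be told apart.

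No member passed in wild type with both knockdowns (0.651% of all genes passed), in ARID2 knockout under control knockdown (1.65%) or in SMARCA4 knockout under control knockdown (7.85%), each against wild type under control knockdown, nor in SMARCA4 knockout with ARID2 knockdown against its own control knockdown (0.0205%). BCL7A had 47.4 and 41.5 CPM in SMARCA4 knockout under control knockdown, against 65.7 and 49.3 CPM in wild type under control knockdown. Its log2 fold change was -0.41 (95% interval -0.79 to -0.04, edgeR adjusted p = 0.263), beside -0.51 and -0.53 in the SMARCA4 clones of the knockout table. For SS18 the value was 0.12 (-0.15 to 0.39), beside 0.17 and 0.22. For SS18L1 it was -0.05 (-0.43 to 0.32), beside -0.44 and -0.49. ACTL6A had 113 and 103 CPM, against 145 and 131 CPM in wild type under control knockdown, without overlap (log2 fold change -0.40, SE 0.137, adjusted p = 0.113).

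**Figure D5:**
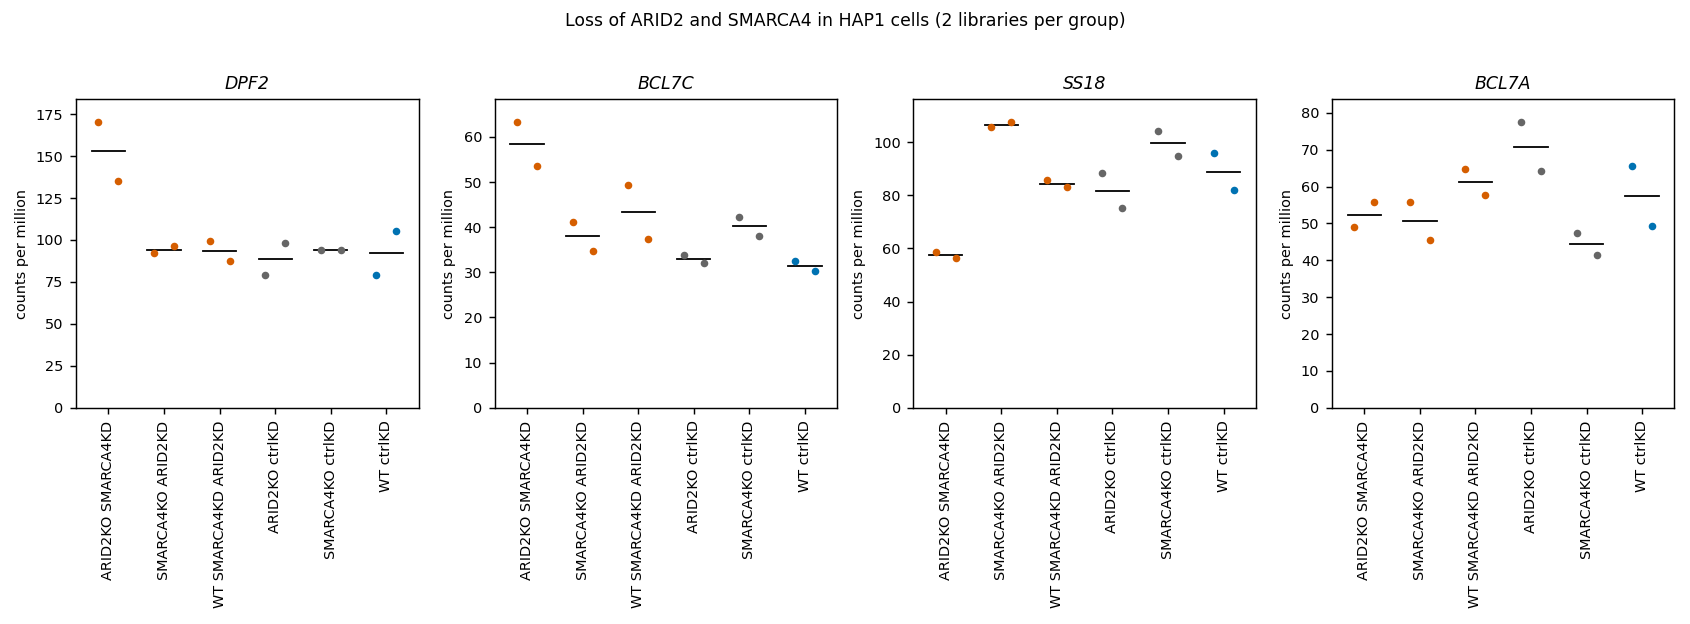
CPM (vertical axes, from 0) of DPF2, BCL7C, SS18 and BCL7A in the 6 groups of the double-loss table (horizontal axes), with the wild type under control knockdown at the right. Points are the 2 libraries of a group and lines their means. Orange marks the groups labelled with a loss of both genes, by knockout or knockdown. ARID2 knockout with SMARCA4 knockdown holds the highest DPF2 and BCL7C libraries (170 and 63.2 CPM) and the lowest SS18 libraries (58.5 and 56.3 CPM).

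The other genes of the complex, 21 in all, were read beside the members. Outside their own knockouts they gave 485 tests over the 24 clones. Of these 78 passed, 19 higher and 59 lower, or 16.1%, beside 14.1% of all gene tests (7.28% higher and 6.78% lower). Against the mean of the other clones the counts were 135 higher and 39 lower. That mean keeps a gene's own knockout clone, where there is one, and may be lowered by it. How far this shifts the split was not tested. GLTSCR1, GLTSCR1L, SMARCB1 and SMARCE1 have no such clone here. In the SMARCA4 clones 3 were higher and 9 lower in each, where 34.9% and 32.8% of all genes passed in either direction. Their median log2 fold change was -0.11 in 2878-4 and -0.19 in 2878-6, beside -0.02 in each over all genes. SMARCA2, the paralog of SMARCA4, was higher in 8 clones.

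Passing changes of at least 1 on the log2 scale were found in 9 of these 485 tests, and in 4.70% of all gene tests. GLTSCR1L, a subunit of the noncanonical form of the complex, was higher in the SMARCD1 clone (1.93), the BRD9 clone (1.86) and the BCL7B clone (1.05, 27.6 ± 3.41 against 13.3 CPM in wild type). BCL11B, a zinc-finger transcription factor, was lower in the BCL7A clone (-1.47, 1.73 ± 0.281 against 4.75 CPM) and in SMARCA4 clones 2878-4 (-4.64) and 2878-6 (-3.81). Its paralog BCL11A was lower in the same SMARCA4 clones (-4.08 and -3.34), and SMARCA2 was higher in clone 2878-4 (1.16). The largest adjusted p of these tests was 0.000113 (edgeR).

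Subunits of INO80 and TIP60, the complexes that share ACTL6A, gave 5 higher and 43 lower among 480 tests. That is 10%, beside 14.1% of all gene tests, 6.78% of them lower. In SMARCA4 clones 2878-4 and 2878-6, 7 and 5 of 20 were lower and none was higher. Of all genes 34.9% and 32.8% passed there in either direction. ACTL6A itself had log2 fold changes of -0.09 and -0.13 and did not pass. REST and its corepressors gave 9 higher and 22 lower among 144 tests, or 21.5%, beside the same 14.1%.

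Across the knockout groups each member was matched with the 3 genes of 13267 whose group means were most like its own, by Pearson's r over 25 groups or, without the clone of the member itself, 24. These r values describe the groups, which share library handling and wild type, and carry no p. SS18 was closest to ADAM10 (0.90), APLP2 (0.90) and CENPI (0.88), and BCL7A to POU6F1 (0.89) and C18orf56 (0.87), the third being a gene with a clone name only. ACTL6A was closest to LCOR (0.84), TTC30B (0.84) and RP1-258N20.3 (0.83), DPF3 to SCUBE2 (0.80), AP4E1 (0.78) and PJA1 (0.75), and SS18L1 to ZNF250 (0.80), DGKD (0.79) and MBD6 (0.78). BCL7B went with C2orf76 (0.78), SBF2 (0.77) and FAM120A (0.76), DPF1 with OAF (0.74), RMDN1 (0.73) and FAM27E3 (0.73), BCL7C with ARHGAP35 (0.71), FAM222A (0.70) and SLX4 (0.69), and DPF2 with ZNF768 (0.70), LRRC41 (0.67) and FAM193A (0.66). Between members the values ran from -0.69 for BCL7A with SS18 to 0.51 for DPF1 with BCL7A.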

How the data were processed

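Gene-level tables of poly-A RNA sequencing libraries (50-base single reads) were used. The authors deposited estimated counts per gene, written as whole numbers with a lowest value of 1, and they were used as deposited. A further deposited table holds log2 values named TPM. These differed from log2 CPM by a median of -0.000639 and did not follow transcript length (Spearman rho -0.128 to 0.106), so they served only as an alternative, and levels per kb were computed from CPM and transcript lengths. Trimmomatic, Bowtie, Picard, DESeq2 and builds GRCh37 and hg19 are named, per the submitters' processing notes. For versions, the counting tool and the annotation no source was at hand, and 8 columns matching no sample were not used.

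Genes were filtered with filterByExpr and fitted with edgeR 4.0.16 (R 4.3.3; TMM, robust quasi-likelihood test, all libraries of a table in 1 fit with a term for each group). Adjusted p-values are Benjamini-Hochberg over all genes tested, 16159 and 14601, and a gene passed at 0.05. Intervals are the estimate ± 1.96 SE. Alternatives used DESeq2 1.42.0, limma 3.58.1, other scalings and filters, GC offsets (chosen after seeing the data) and left-out libraries.

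The members and lists were chosen with earlier results of these data known. Named beside the members were the 3 genes most like each by group means, and other BAF genes past a log2 fold change of 1. Same-numbered libraries deviated together (every r above 0.1) in 5 of 24 knockout groups and, with r of 0.0929 to 0.527 over only 2 numbers a group, in 4 of 5 double-loss groups. The numbers were not taken as pairs, and results come from fits without the replicate block. On simulated data, the step for the DPF2 clone (15743 genes) recovered 51.5% of changes of 0.5 and 92.4% of changes of 1 on the log2 scale. That for ARID2 knockout with SMARCA4 knockdown (14370 genes) recovered 1.47% and 42.4%. In these simulations 15543 and 14170 genes were unchanged, whereas 6.72% and 15.0% of genes passed in the real contrasts. The recovered shares therefore need not hold for the real data. Promoters and transcript lengths come from GRCh38 annotations, and no coordinates were converted.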

Additional observations from a re-analysis of the deposited data

Results flagged for a closer look

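The double losses were set directly against each other, and 2 members differed by a test of that difference. SS18 had 58.5 and 56.3 CPM in ARID2 knockout with SMARCA4 knockdown, against 106 and 108 CPM in SMARCA4 knockout with ARID2 knockdown, a log2 difference of -0.91 (edgeR adjusted p = 0.00311). DPF2 had 170 and 135 CPM against 92.4 and 96.2 CPM, a log2 difference of 0.68 (edgeR adjusted p = 0.0472). Without replicate number 1 of each group but wild type the adjusted p was 0.230 for SS18 and 0.919 for DPF2, and without number 2 it was 0.135 and 0.162. In those fits each double loss held 1 library and the spread came from the wild-type libraries alone. They therefore do not show whether the differences hold. Over all alternatives the log2 differences were -0.94 to -0.90 for SS18 and 0.50 to 0.83 for DPF2. The contrast was chosen after the data were seen.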

How the results depend on the processing

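Outside their own knockouts members passed higher in 7 and lower in 10 tests. With only the groups compared in the fit 2 were higher. Against the mean of the other clones, which keeps a gene's own knockout clone where there is one, 35 were higher and 16 lower. Leaving out 1 library number gave 3 to 6 higher, and 0 to 1 past a log2 fold change of 1. Other BAF genes, 19 higher and 59 lower, gave 135 and 39 against the other clones, and 12 to 20 higher with a library left out. Among double losses, 2 members higher and 1 lower against wild type became 0 and 0 with only the groups compared, 2 lower with the replicate block, and 0 to 1 in either direction with a library left out. For knockdown inside a knockout, 2 higher and 1 lower became 0 and 0 without the filter or with only the groups compared. GC offsets left 1 higher. Leaving out a library gave 0 to 2 higher, 0 to 1 lower and 0 to 1 past the fold of 1.

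Signs turned for paralogs near 0 that did not pass: BCL7C in the BCL7A clone (-0.064 with GC offsets, -0.0092 with limma, -0.041 to 0.052 with a library left out), BCL7C in the BCL7B clone (0.018 with GC offsets), BCL7B in the BCL7A clone (-0.15 to 0.011) and DPF2 in the DPF3 clone (-0.053 to 0.11). DPF2 in the DPF1 clone passed against the mean of the other clones (0.21, edgeR adjusted p = 0.0248). That mean includes the DPF2 clone, where DPF2 itself had a log2 fold change of -3.73, and is lowered by it. The causes were not tested. The replicate block gave 13 lower member tests in the knockout table, where 10 passed without it, and ended no member's call. It added ACTL6A in ARID1A clone 618-3 (log2 fold change -0.24, adjusted p = 0.0432), SS18 in the ARID1B clone (-0.17, 0.0492) and SS18L1 in the SMARCA2 clone (-0.38, 0.0489). In the double-loss table it added ACTL6A in SMARCA4 knockout under control knockdown (-0.40, 0.0313) and BCL7C between the double losses (0.60, 0.0188). The limma alternative had no SMARCC2 libraries. On simulated data with 2 libraries a group, changes of 0.5 on the log2 scale were seldom recovered. Fewer genes were changed there than passed in the real contrast, so this need not hold for the double-loss table.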
